A study of Arabidopsis thaliana with 15 samples.

Results

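Germinated Arabidopsis thaliana seeds that had spent 72 h in abscisic acid (ABA) were compared with seeds taken at 0 h, at the start of the incubation. The comparison used 6 of the 15 arrays in the study, the 3 titled as 72 h and the 3 titled as 0 h. All arrays held total RNA of the Col-0 ecotype. Seeds had been kept moist in the cold first (4 °C, 72 h) and then germinated at 22 °C under constant white light until the radicle protruded. Incubation was in 10 µM ABA, in the dark, at 20 °C, and the other times sampled were 2 h, 12 h and 24 h. Each biological replicate was a pool of seeds bulk-harvested from at least 2 plants. No seeds incubated without ABA are among these arrays, so ABA, elapsed time, darkness and the lower temperature cannot be told apart. The title of the series gives its aim as following how ABA re-establishes desiccation tolerance, and no survival or water content was analysed here.

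ABA is the plant hormone that holds seeds in their maturation programme and blocks germination. It binds receptors of the PYR/PYL family, which then inhibit clade A protein phosphatases (PP2C), and SnRK2 kinases freed from these phosphatases activate transcription factors such as ABI5. Late embryogenesis abundant (LEA) proteins, which protect dry cells, and the proteins that coat oil bodies belong to the genes this pathway controls, and young seedlings lose both the proteins and their tolerance of drying soon after the radicle emerges.

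The values were log2 RMA signals between 1.49 and 12.77, reduced to 27981 loci. Replicates of 0 h correlated at 0.992 to 0.994 across loci, as did those of 72 h. The second replicate at 2 h stood apart from its group (2 h replicates correlated at 0.889 to 0.986). It enters the values and plots at 2 h and is averaged into no mean at 0 h, 24 h or 72 h. It did count in the mean over all 15 arrays by which 1 probe set per locus was kept, a choice not repeated without it. It also raised the pooled estimate of spread. Without it in the fit the number of loci called at 72 h went from 10777 to 14318, with none of the 10777 lost. Differences are given as 72 h minus 0 h on the log2 scale with the standard error of the limma fit to all 15 arrays, n = 3 arrays per time. A locus was called at an adjusted p under 0.05.

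Between 0 h and 72 h, 5137 loci rose and 5640 fell, which is 18.4% and 20.2% of all loci tested and 38.5% together. The counts of list members against 0 h given below are to be read beside these shares. In 28.1% of all loci the 3 arrays at 72 h all read above the 3 at 0 h, and in 30% they all read below. The median difference over all loci was -0.02. Rises by at least 4 numbered 141 (0.504%) and falls by at least 4 numbered 47 (0.168%). Signals were not tested against background, so a difference that starts or ends near the bottom of the range may understate the change. Of the 574 rises by at least 2 (2.05%), 89 started from a mean under the lower quartile of loci at 0 h (3.18), and of the 655 falls by at least 2 (2.34%), 90 ended under the lower quartile at 72 h (3.13). Whole seeds were measured, so a fall in the share of cells of one type and less RNA per cell cannot be told apart.

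**Figure D1:**
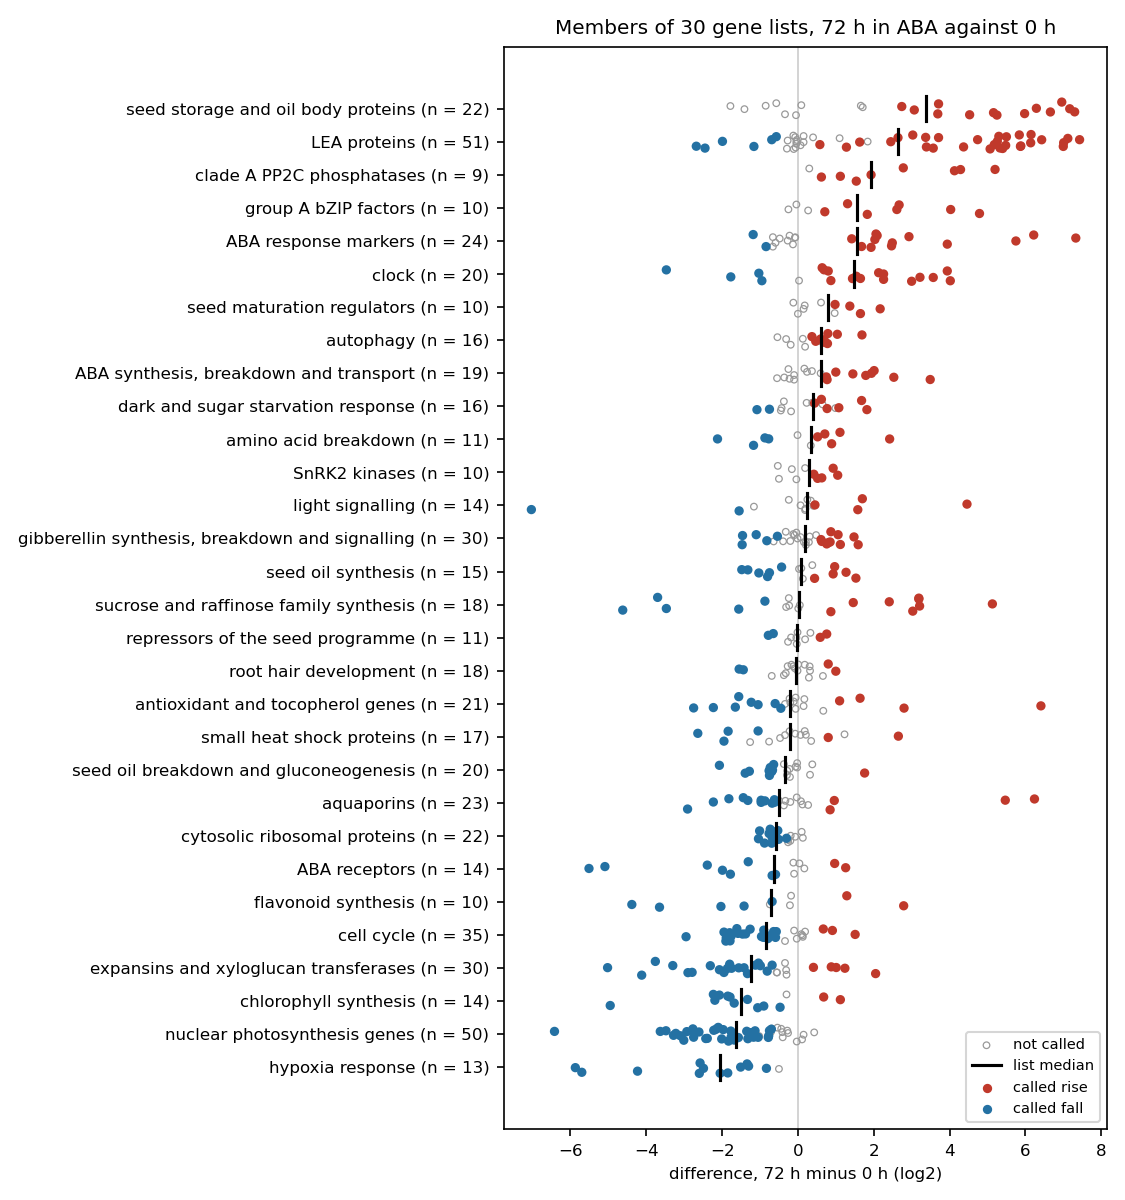
Difference between 72 h and 0 h (log2, x axis) of every member of 30 gene lists, ordered by the list median. Filled points passed the test as rises (red) or falls (blue), open points did not, and the black bar is the list median, which runs from 3.38 for seed storage and oil body proteins to -2.05 for hypoxia response genes.

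The largest rises included many members of the LEA and oil body lists. RD29B, a desiccation and ABA response gene, read 2.56, 3.15 and 3.54 at 0 h and 10.39, 10.41 and 10.43 at 72 h. Every array at 72 h lay far above every array at 0 h, and the difference was 7.33 ± 0.20 (adjusted p = 8.82e-12). Of the 12 largest rises, 4 were on the LEA list (AT4G36600 at 7.43 ± 0.19, AT2G42560 at 7.12 ± 0.35, AT4G39130 at 7.01 ± 0.28 and AT1G72100 at 7.0 ± 0.17). Another 3 were on the seed storage and oil body list (AT2G18540 at 7.30 ± 0.20, AT2G25890 at 7.17 ± 0.19 and the oleosin gene OLEO2 at 6.96 ± 0.34). The remaining 4 (AT5G07330 at 7.49 ± 0.21, AT2G38905 at 7.41 ± 0.23, AT4G31830 at 7.11 ± 0.30 and AT4G25580 at 6.99 ± 0.37) carry no gene name in the reference table. AT5G07330, the largest rise of all, read 3.14, 3.40 and 3.96 at 0 h and 10.86, 11.06 and 11.04 at 72 h.

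ABA signalling genes moved in opposite directions along the pathway. Of 14 ABA receptor genes, 8 fell and 2 rose (median -0.64). PYL6 read 8.59, 8.74 and 8.71 at 0 h and 3.13, 3.20 and 3.18 at 72 h. The groups were widely separated, with a difference of -5.51 ± 0.20 (adjusted p = 1.61e-10). PYL2 read 9.30, 9.24 and 9.49 at 0 h and 4.04, 4.39 and 4.32 at 72 h, a fall of 5.09 on the log2 scale. PYL11 at -2.39, PYL1 at -1.99, PYL5 at -1.78, PYL4 at -1.31, PYL8 at -0.68 and PYR1 at -0.59 fell by less. The receptor genes that rose were PYL9 (1.26) and PYL7 (0.97), while PYL3, PYL10, PYL12 and PYL13 were not called and had means between 2.74 and 3.23 at both times.

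Clade A PP2C genes, whose products act against the hormone, rose in 8 of 9 cases with no fall (median 1.93). AHG1, a phosphatase gene of the seed, read 3.37, 3.26 and 3.27 at 0 h and 8.71, 8.35 and 8.45 at 72 h. The difference was 5.20 ± 0.22 (adjusted p = 6.82e-10), and no array of one time approached the other. HAI3 rose by 4.29 ± 0.22, HAI2 by 4.13 ± 0.31, ABI2 by 2.78 ± 0.25, AHG3 by 1.93, HAB1 by 1.54, HAB2 by 1.12 and HAI1 by 0.62. ABI1 was not called, with means of 8.0 at 0 h and 8.30 at 72 h. Of the 10 SnRK2 kinase genes, 5 rose and none fell, and the largest of these rises was 1.05 ± 0.16 in SNRK2.2. SNRK2.9 rose by 0.93 ± 0.16 and SNRK2.3 by 0.63 ± 0.16. Without 72 h replicate 1 the number of SnRK2 genes called was 3, and without the second replicate at 2 h 1 counted as a fall. SNRK2.6, the OST1 kinase, was not called (7.67 at 0 h and 7.62 at 72 h).

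Transcription factors of the ABA and seed maturation programme rose in part. In group A bZIP factors, 7 of 10 rose and none fell (median 1.57). ABI5, which holds germinated seeds in growth arrest under ABA, read 5.89, 5.65 and 5.39 at 0 h and 9.75, 9.64 and 9.62 at 72 h. These arrays did not overlap, and the difference was 4.03 ± 0.14 (adjusted p = 1.08e-10). EEL rose by 4.79 ± 0.22, ABF3 by 2.67 ± 0.43, ABF1 by 2.61 ± 0.40, AREB3 by 1.83 and ABF4 by 1.31, and ABF2 was not called (5.83 and 5.58).

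Among the 10 seed maturation regulators, 4 rose and none fell (median 0.79). ABI3, a B3-domain master regulator of maturation, read 7.38, 7.23 and 7.14 at 0 h and 8.91, 8.85 and 8.95 at 72 h, a difference of 1.65 ± 0.21 (adjusted p = 2.44e-05). FUS3, a related regulator, read 2.93, 2.62 and 2.72 at 0 h and 4.61, 4.86 and 5.31 at 72 h, a difference of 2.17 ± 0.28 (adjusted p = 2.72e-05). Both were higher at 72 h on every array. WRI1, an activator of fatty acid synthesis in seeds, rose by 1.37 ± 0.21, and ABI4 by 0.98 ± 0.18. DOG1, a regulator of seed dormancy, read 2.98, 3.14 and 3.20 at 0 h and 4.09, 4.25 and 3.89 at 72 h. Its arrays did not overlap, yet it missed the threshold (0.97 ± 0.37, adjusted p = 0.0505), and without the second replicate at 2 h it passed (adjusted p = 0.000156). LEC1, L1L and LEC2, which act earlier in embryogenesis, lay between 2.4 and 3.44 in mean signal at both times and were not called. Of 11 repressors of the seed programme, 2 rose, SWN (0.76) and VAL1 (0.59), and 2 fell, FIE (-0.78) and MSI1 (-0.65). The other 7 were not called, and the list median was -0.03. The shares of rises and of falls in this list were no larger than the 18.4% and 20.2% of all loci.

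**Figure D2:**
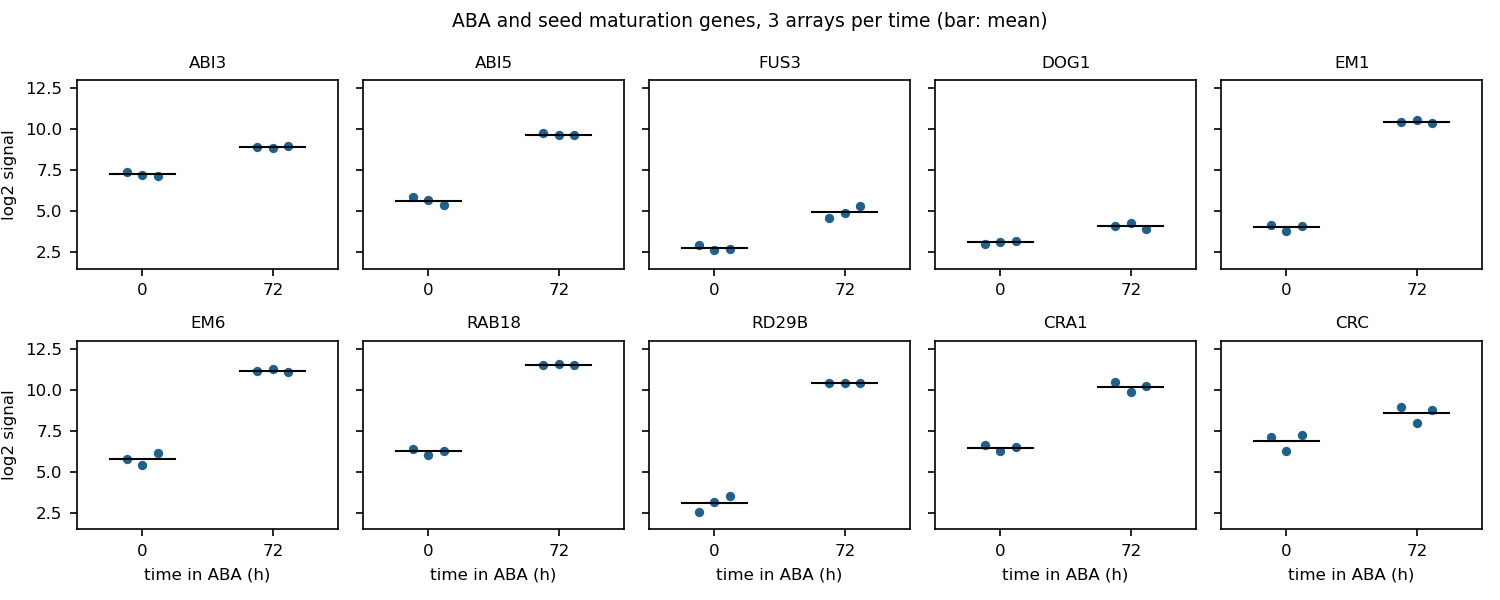
Log2 signal (y axis) of 10 ABA and seed maturation genes on the 3 arrays at 0 h and the 3 arrays at 72 h (x axis); points are arrays and bars are means. For all of them the points at 72 h lie above those at 0 h, from 0.97 for DOG1 to 7.33 for RD29B in mean difference, although DOG1 and CRC were not called.

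LEA genes rose in 30 of 51 cases and fell in 6 (median 2.64). EM1, a group 1 LEA gene of the dry seed, read 4.16, 3.78 and 4.12 at 0 h and 10.44, 10.53 and 10.38 at 72 h. EM6, its close relative, read 5.77, 5.38 and 6.16 at 0 h and 11.13, 11.28 and 11.11 at 72 h. The dehydrin gene RAB18 read 6.40, 6.04 and 6.29 at 0 h and 11.50, 11.58 and 11.54 at 72 h. In each of these genes the times were separated by several log2 units, with differences of 6.43 ± 0.20, 5.40 ± 0.27 and 5.30 ± 0.35 (adjusted p = 2.42e-11, 3.96e-09 and 6.40e-08). XERO2, another dehydrin gene, rose by 5.26 and LEA14 by 3.39.

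The 6 LEA genes that fell included the dehydrin genes ERD10 and COR47. ERD10 read 6.61, 6.51 and 6.88 at 0 h and 4.61, 4.80 and 4.63 at 72 h, a difference of -1.99. COR47 changed by -1.16 and SAG21, a senescence-associated LEA gene, by -0.57, and the other falls were AT4G38410 (-2.68), AT2G03850 (-2.45) and AT2G46140 (-0.69). The cold response genes COR15A and COR15B were not called and had means from 2.69 to 3.92 at both times. The dehydrin genes ERD14 and HIRD11 were not called either (6.86 and 6.82 for ERD14, 9.15 and 9.11 for HIRD11).

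Genes for oil body coat proteins and for seed storage proteins rose in 13 of 22 cases with no fall (median 3.38). Oleosin genes were higher: OLEO2 rose by 6.96 ± 0.34, OLEO1 by 3.69 and OLEO3 by 2.74. OLEO4 was not called, with a mean of 4.13 at 0 h and 5.79 at 72 h. CLO1, a caleosin gene of oil bodies, rose by 3.07. AT2G28490 and PAP85, also on this list, rose by 6.66 ± 0.48 and 4.53.

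Genes for the main storage proteins differed among themselves. CRA1, for a 12S globulin, read 6.61, 6.28 and 6.51 at 0 h, 11.49, 11.81 and 11.81 at 24 h and 10.47, 9.86 and 10.21 at 72 h. It was thus high at both later times and rose by 3.71 ± 0.64 from 0 h to 72 h (adjusted p = 0.000327). CRC, for another 12S globulin, read 7.13, 6.24 and 7.21 at 0 h, 10.72, 11.61 and 11.49 at 24 h and 8.96, 7.95 and 8.79 at 72 h. All 3 arrays at 72 h lay above those at 0 h and below those at 24 h, but the difference from 0 h was 1.71 ± 0.88 and not called (adjusted p = 0.153). Without the second replicate at 2 h it passed (adjusted p = 0.000202).

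The 2S albumin genes were not among the genes that rose. SESA1 read 5.31, 6.05 and 6.07 at 0 h, 6.24, 7.63 and 7.52 at 24 h and 5.47, 5.05 and 5.21 at 72 h. SESA3 read 6.21, 5.68 and 6.29 at 0 h, 5.41, 6.62 and 6.22 at 24 h and 4.41, 3.92 and 4.51 at 72 h. SESA2 and SESA3 were lower at 72 h than at 0 h on every array, by 1.41 and 1.78 on average, without passing the test, and SESA1 (-0.57), SESA4 (-0.34) and SESA5 (0.09) differed less. In the fit without the second replicate at 2 h, which read highest of its group for SESA1, SESA2, SESA3 and SESA5, 2 members of the list counted as falls. Between 24 h and 72 h OLEO1 fell by 1.57 on the log2 scale (adjusted p = 0.0391) and OLEO3 by 0.48 (adjusted p = 0.0323), the only called members of this list in that comparison.

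**Figure D3:**
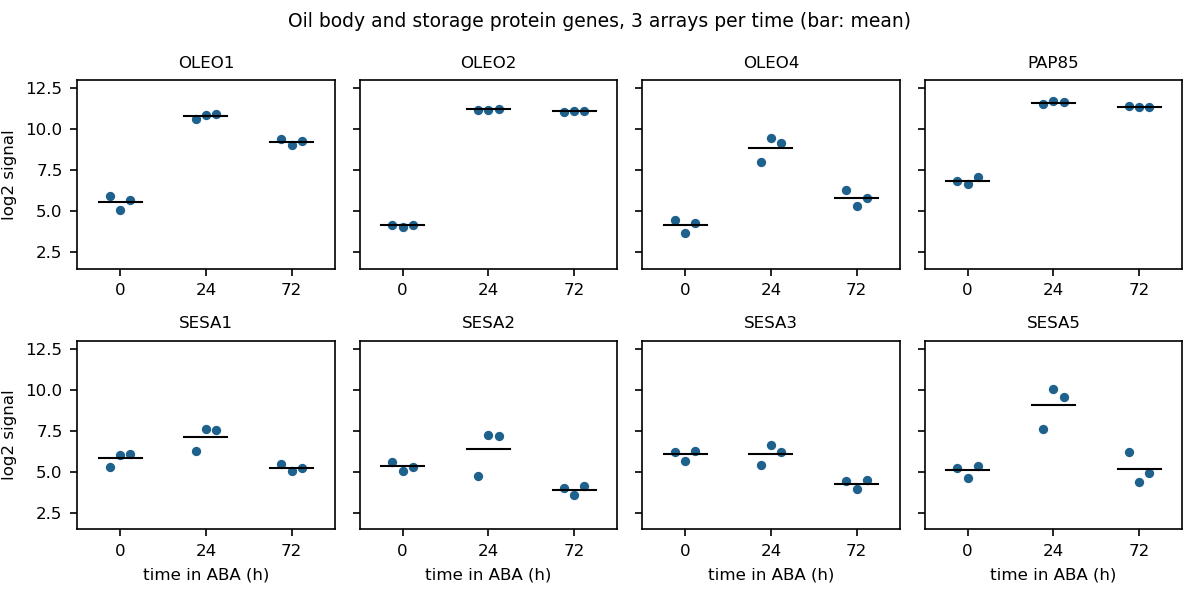
Log2 signal (y axis) of 4 oil body or storage genes (OLEO1, OLEO2, OLEO4, PAP85) and 4 genes of 2S albumins (SESA1, SESA2, SESA3, SESA5) at 0 h, 24 h and 72 h (x axis); points are arrays and bars are means. OLEO2 and PAP85 are high at 24 h and at 72 h (72 h means of 11.09 and 11.38), while the 4 albumin genes lie between 3.57 and 6.22 on the 72 h arrays.

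Other stress and hormone genes changed as follows. Of 24 ABA response markers, 13 rose and 2 fell (median 1.55). RD29A, a relative of RD29B, read 2.4, 3.27 and 2.22 at 0 h and 8.96, 8.82 and 8.77 at 72 h, a difference of 6.22 ± 0.36 (adjusted p = 1.60e-08) between groups that lay far apart. HVA22B rose by 5.75 ± 0.20 and KIN1 by 3.94 ± 0.25, and the genes for the ABI5-binding proteins AFP1, AFP2 and AFP3 by 2.93, 2.06 and 2.49. P5CS1, for the limiting enzyme of proline synthesis, fell by 1.18 on the log2 scale and the senescence factor gene NAP by 0.84. RD20, RD22, RD26 and RCI2B were not called. The number of falls in this list was 5 without the second replicate at 2 h, 1 without 0 h replicate 1 or any 1 array at 72 h, and 0 without 0 h replicate 3.

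Genes for ABA synthesis and for ABA breakdown rose together, 9 of 19 with no fall (median 0.60). CYP707A2, for an ABA 8'-hydroxylase that breaks the hormone down in seeds, read 5.62, 4.82 and 4.98 at 0 h and 8.65, 8.63 and 8.60 at 72 h. The difference was 3.49 ± 0.21 (adjusted p = 2.82e-08), with no overlap. ABA1, for zeaxanthin epoxidase, rose by 2.53 ± 0.23, and the dioxygenase genes NCED9, NCED2, NCED5 and NCED3 by 2.01, 1.94, 1.79 and 1.0. Without the second replicate at 2 h, 2 members counted as falls, and without 72 h replicate 2 there was 1.

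In the gibberellin list 10 of 30 rose and 5 fell (median 0.19). RGL2, for the DELLA repressor of germination, rose by 1.59 ± 0.14 and GA2OX2, for a gibberellin-inactivating enzyme, by 1.48 ± 0.19. GA3OX1, for the last step of gibberellin synthesis, fell by 1.46 on the log2 scale and the receptor gene GID1B by 1.47, while the receptor genes GID1A and GID1C rose by 1.12 and 1.06. GA3OX2 had means of 9.87 at 0 h, 6.92 at 24 h and 9.23 at 72 h. It was not called against 0 h and rose by 2.31 ± 0.29 between 24 h and 72 h (adjusted p = 0.000436).

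Sugar genes moved in both directions. In the list of sucrose and raffinose family synthesis, 8 of 18 rose and 5 fell (median 0.03). SUS3, for a sucrose synthase of seeds, read 4.64, 4.19 and 4.22 at 0 h and 9.49, 9.47 and 9.49 at 72 h. SUS4, for another sucrose synthase, read 6.35, 5.91 and 6.49 at 0 h and 2.82, 2.93 and 2.6 at 72 h. These members of the family moved in opposite directions with no overlap, by 5.13 ± 0.28 and -3.47 ± 0.19 (adjusted p = 1.13e-08 and 1.05e-08). SUS6 fell by 3.70 and SUS5 by 1.56 on the log2 scale, and SUS1 rose by 1.46. Among genes for the galactinol and raffinose route, GolS2 rose by 3.21, STS by 3.19 and GolS1 by 3.03, and DIN10 fell by 4.62.

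Protective proteins beyond the LEA group were mixed. Of 21 antioxidant and tocopherol genes, 4 rose and 8 fell (median -0.20). PER1, for a seed peroxiredoxin, read 3.83, 3.85 and 4.07 at 0 h and 10.34, 10.32 and 10.30 at 72 h, a difference of 6.41 ± 0.36 (adjusted p = 1.23e-08). VTE1, for tocopherol cyclase, rose by 2.8 ± 0.21, VTE5, for phytol kinase, fell by 2.75 on the log2 scale, and the plastid iron superoxide dismutase genes FSD2 and FSD3 fell by 2.23 and 1.65. Of 17 small heat shock protein genes 2 rose and 4 fell (median -0.22). AT2G29500 rose by 2.65 ± 0.67, AT4G21870 fell by 2.64, and 11 were not called, among them the chaperone gene HSP101. The list held 1 rise when 0 h replicate 2 or 3 or any 1 array at 72 h was left out. Without the second replicate at 2 h, 10 of the 17 were called, 7 of them as falls.

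Aquaporin genes fell in 11 of 23 cases and rose in 4 (median -0.50). The seed tonoplast aquaporin genes TIP3;1 and BETA-TIP were the large rises: TIP3;1 read 3.73, 3.60 and 3.78 at 0 h and 10.00, 9.83 and 9.99 at 72 h. That difference of 6.24 ± 0.84 (adjusted p = 4.17e-05) stood beside 5.47 ± 0.59 for BETA-TIP. TIP1;1, a tonoplast aquaporin gene of growing tissue, fell by 2.23 and the plasma membrane gene PIP2;8 by 2.91 on the log2 scale.

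The largest falls included genes of chloroplasts, cell walls and the hypoxia response. ELIP2, for an early light-induced protein that protects thylakoids, read 10.76, 10.42 and 10.36 at 0 h and 3.55, 3.85 and 3.04 at 72 h. The groups lay far apart, with a difference of -7.03 ± 0.95 (adjusted p = 4.38e-05). RBCS1B, for a small subunit of Rubisco, read 9.86, 10.03 and 9.76 at 0 h and 2.68, 4.11 and 3.61 at 72 h, a fall of 6.42 on the log2 scale. CDEF1, for a cutinase, fell by 5.89 and RALF1, for a peptide signal that limits cell expansion, by 5.27. Loci without a gene name in the reference table among the 12 largest falls were AT1G29090 (-6.00), AT2G27420 (-5.77), AT2G43150 (-5.76), AT3G56060 (-5.33) and AT2G23970 (-5.31).

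Nuclear photosynthesis genes fell in 37 of 50 cases and none rose (median -1.62), with 1 rise without the second replicate at 2 h. LHCB1.2, for a light-harvesting protein of photosystem II, fell by 3.63 on the log2 scale, PSAK of photosystem I by 3.48 and PSBQA of the oxygen-evolving complex by 3.28. The Rubisco gene RBCS1A was not called, reading 10.16, 10.19 and 10.18 at 0 h and 10.22, 10.38 and 10.25 at 72 h, while its relatives RBCS1B, RBCS3B and RBCS2B fell by 6.42, 2.77 and 1.05. The RBCS and LHCB1 genes are near-identical in sequence, and how far their probe sets tell them apart is not given in the sources used here. Chlorophyll synthesis genes fell in 11 of 14 cases. GUN5, for a subunit of magnesium chelatase, read 9.09, 8.86 and 8.61 at 0 h and 3.56, 4.27 and 3.89 at 72 h, a difference of -4.95 ± 0.66 (adjusted p = 3.81e-05). PORA (1.12) and CAO (0.68) rose, and the list held 1 rise without 0 h replicate 1 or 2 and without 72 h replicate 2 or 3.

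Genes encoded in the organelles were counted apart. Of 132 plastid-genome loci, 33 rose and 13 fell (median 0.18), with rises numbering 19 when 0 h replicate 3 was left out, 20 when 72 h replicate 2 was, and 51 when the second replicate at 2 h was. Of 129 mitochondrial-genome loci, 67 fell and 3 rose (median -0.73), with 1 to 7 rises when single arrays were left out. The list was split, since 59 loci were not called, among them ATMG01360 (0.02), ATMG00160 (-0.07) and ATMG01190 (0.16). ATMG01090 had means of 11.09 at 0 h, 9.93 at 24 h and 8.92 at 72 h, a fall of 2.16 on the log2 scale. ATMG00050 had means of 9.47, 8.57 and 7.64 at those times and fell by 1.83. The counts of organelle loci include loci with identical values, which share probes, and the mitochondrial rises include a locus with the values of a plastid locus.

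Of 13 hypoxia response genes 12 fell, and none rose (median -2.05). HB1, for a class 1 haemoglobin that scavenges nitric oxide, read 9.97, 9.74 and 9.71 at 0 h and 4.31, 4.06 and 3.44 at 72 h. SAD6, for a stearoyl-ACP desaturase, read 9.09, 8.83 and 8.88 at 0 h and 3.18, 3.23 and 3.29 at 72 h. Both pairs of groups were widely separated, with differences of -5.87 ± 0.33 and -5.70 ± 0.13 (adjusted p = 1.40e-08 and 1.59e-12). The fermentation genes PDC1 and ADH1 fell by 4.23 and 2.6 on the log2 scale, and the oxygen-sensing genes PCO1 and PCO2 by 1.30 and 2.05. The list median, as a difference from 0 h, was -0.02 at 2 h, -0.17 at 12 h and -1.89 at 24 h.

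**Figure D4:**
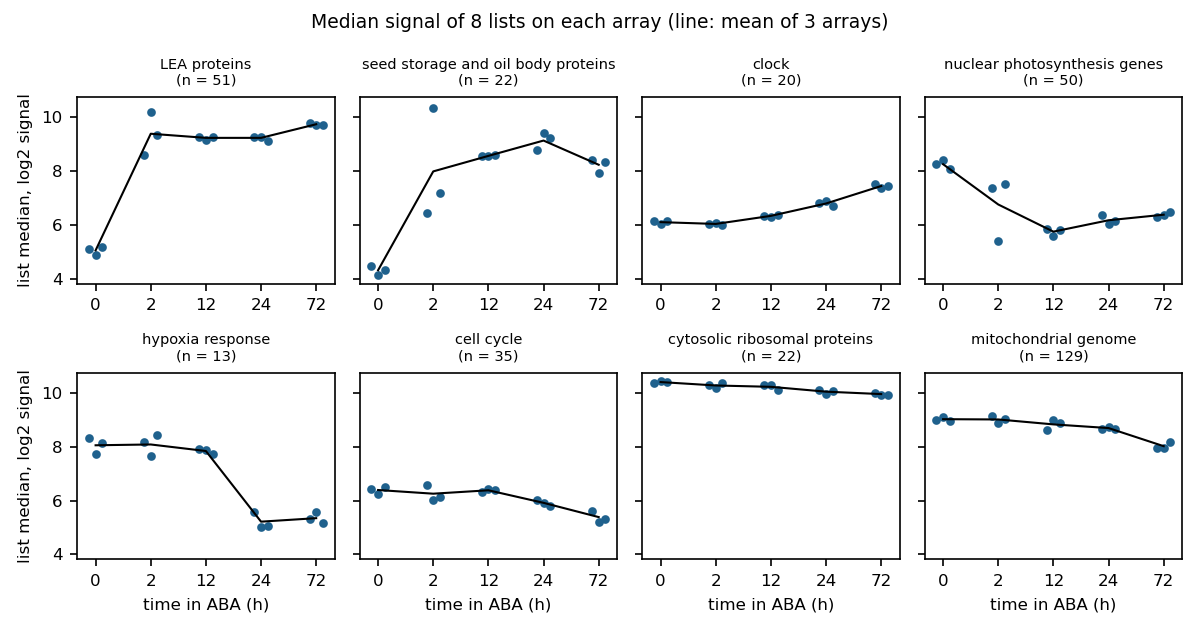
Median log2 signal (y axis) of 8 gene lists on each of the 15 arrays by time in ABA (x axis); points are arrays and the line joins the means of 3 arrays. LEA and storage medians lie well above their 0 h level from 2 h on, the hypoxia median is 0.17 under 0 h at 12 h and 1.89 under it at 24 h as a median of differences, and 1 array at 2 h lies apart from its group in several lists.

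Genes for growth also fell. In the cell cycle list 24 of 35 fell and 3 rose (median -0.84). PCNA1, for the sliding clamp of DNA replication, read 7.64, 7.69 and 7.70 at 0 h, 6.03, 5.74 and 5.41 at 24 h and 4.70, 4.77 and 4.72 at 72 h. It was lower on every array at each later time, by 2.95 ± 0.15 from 0 h to 72 h (adjusted p = 6.65e-09), a fall, and by 1.0 ± 0.15 from 24 h (adjusted p = 0.00243). All 6 replication licensing genes on the list fell, MCM2 to MCM7, with differences from -1.38 to -1.89. The ribonucleotide reductase genes RNR1 and TSO2 fell by 1.90 and 1.87 on the log2 scale. The genes that rose were CYCD1;1 (1.51) and CYCD2;1 (0.67), for D-type cyclins, and CDKA;1 (0.91), for the main cell cycle kinase, while CYCB1;1, for a mitotic cyclin, fell by 0.76.

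Expansin and xyloglucan transferase genes, whose products loosen cell walls, fell in 20 of 30 cases and rose in 5 (median -1.23). XTH18 read 8.92, 9.02 and 9.27 at 0 h and 3.89, 4.22 and 4.04 at 72 h, a difference of -5.02 ± 0.31 (adjusted p = 3.90e-08) between groups far apart. XTH24 fell by 4.12, EXPA8 by 3.76 and EXPA17 by 3.30. EXPA4 rose by 2.05 and XTH15 by 1.24. Cytosolic ribosomal protein genes fell in 15 of 22 cases and none rose (median -0.59), with the largest fall 1.04 on the log2 scale in RPL10B. In the root hair list 2 of 18 rose (RHD6 at 1.0, SCN1 at 0.80) and 2 fell (LRX1 at -1.55, PRP1 at -1.44). That is 11.1% in each direction, less than the 18.4% and 20.2% of all loci.

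Genes of reserve use were mixed. Of 20 genes of seed oil breakdown, 9 fell and 1 rose (median -0.33), with 3 rises without the second replicate at 2 h. ICL, for isocitrate lyase of the glyoxylate cycle, read 11.63, 11.72 and 11.66 at 0 h and 11.63, 11.71 and 11.60 at 72 h. MLS, for malate synthase, and PCK1, for the gluconeogenic kinase, were not called either (differences of -0.06 and -0.21). CSY2, for a peroxisomal citrate synthase, fell by 2.07 on the log2 scale, the acyl-CoA oxidase genes ACX3 and ACX2 by 1.39 and 1.28, and ACN1, for an acetate-activating enzyme, rose by 1.76. Seed oil synthesis genes split into 5 rises, led by DGAT1 of triacylglycerol assembly (1.53), and 6 falls, led by SSI2 of fatty acid desaturation (-1.48). Of 16 autophagy genes 10 rose, led by ATG8C (1.69 ± 0.23), and none fell. There were 6 rises without 72 h replicate 3, and 1 fall without the second replicate at 2 h. In the dark and sugar starvation list 6 of 16 rose and 2 fell (median 0.41), led by DRM1 (1.82) and EXL2 (1.68). The number called in that list was 4 when any 1 of 0 h replicates 1 and 2 and 72 h replicates 1 and 3 was left out, and 14 without the second replicate at 2 h. Amino acid breakdown genes divided into 5 rises, led by GDH1 (2.42), and 4 falls, led by BCAT1 (-2.12).

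Clock genes were called in 19 of 20 cases, 15 of them rises (median 1.49). PRR9, a repressor of the morning genes, read 4.31, 3.25 and 4.84 at 0 h and 8.09, 8.20 and 8.18 at 72 h. The difference was 4.02 ± 0.45 (adjusted p = 8.34e-06) without overlap. PRR5 rose by 3.94, FKF1 by 3.57, GI by 3.22 and TOC1, of the evening loop, by 2.26. The 4 falls were the morning genes LHY (-3.47) and CCA1 (-1.77), with CHE (-1.03) and RVE1 (-0.95). The hour of day at which each time was sampled is not given in the sources used here, so clock phase and time in ABA cannot be told apart.

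The 72 h arrays were then compared with the 24 h arrays, to see what changed late in the incubation. Only 928 loci were called, 3.32% of those tested, with 540 rises (1.93%) and 388 falls (1.39%). The count was 413, 418, 488, 460 and 407 without 24 h replicates 2 and 3 and 72 h replicates 1, 2 and 3 respectively, and 3588 without the second replicate at 2 h. The LEA list had 1 called member here, RAB28 of the LEA group, at -0.90, and the median of the list between these times was -0.12.

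Light response genes were among the late rises. The label gives incubation in the dark for every time, and the sources used here do not say whether seeds saw light before or at sampling. ELIP1 read 11.23, 10.88 and 10.47 at 0 h, 3.96, 3.65 and 4.04 at 24 h and 8.87, 9.40 and 9.67 at 72 h. It was thus near the bottom of the range at 24 h and high again at 72 h, a rise of 5.43 ± 0.39 (adjusted p = 4.02e-06), with a difference of -1.55 from 0 h. ELIP2, from the same family, was low at both, with a mean of 3.31 at 24 h and 3.48 at 72 h.

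HY5, for a transcription factor that promotes light responses, read 7.95, 7.51 and 7.45 at 0 h, 6.66, 5.73 and 6.35 at 24 h and 9.16, 9.51 and 9.35 at 72 h. It ended above both earlier times on every array, by 3.09 ± 0.27 over 24 h (adjusted p = 3.28e-05) and 1.7 ± 0.27 over 0 h (adjusted p = 0.000195). Its homologue HYH read 4.17, 3.93 and 4.45 at 24 h and 7.49, 7.77 and 7.78 at 72 h, a rise of 3.50 ± 0.66 (adjusted p = 0.00902). Against 0 h HYH was not called in the fit to all arrays and was called without the second replicate at 2 h, with the same difference of -1.16.

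In the light signalling list 4 of 14 rose and 2 fell against 0 h (median 0.23). Between 24 h and 72 h, 6 of the 14 rose and none fell. Besides ELIP1, HY5 and HYH these were SPA1 (1.79), HFR1 (1.88) and PIF4 (1.26), the last for a growth-promoting factor whose protein is removed in light. PIF4 was also 4.46 ± 0.27 above 0 h (adjusted p = 2.82e-08). PORA, for the protochlorophyllide reductase of dark-grown seedlings, rose by 2.44 ± 0.38 between 24 h and 72 h (adjusted p = 0.00266), and CGA1, for a GATA factor of chloroplast development, by 3.81 ± 0.21 (adjusted p = 1.10e-06). Of the 50 nuclear photosynthesis genes 1 was called between these times, PSBQ-2 at -1.02, and the list median was 0.07.

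Flavonoid genes did not move together, and against 0 h 2 of 10 rose and 5 fell at 72 h (median -0.71). CHS, for the first committed enzyme, read 8.94, 8.72 and 8.19 at 0 h, 4.37, 4.38 and 4.25 at 24 h and 4.08, 4.31 and 4.32 at 72 h. F3H, for flavanone 3-hydroxylase, read 7.67, 7.14 and 7.08 at 0 h, 4.59, 4.25 and 4.63 at 24 h and 8.66, 8.43 and 8.69 at 72 h. CHS was therefore low at both later times and F3H only at 24 h, with rises of F3H by 4.1 ± 0.48 from 24 h (adjusted p = 0.000283) and 1.29 ± 0.48 from 0 h (adjusted p = 0.0454). The smaller rise missed the threshold without any 1 of the arrays at 0 h or 72 h. AT3G51238, a long noncoding locus, overlaps F3H over 1588 bases and rose by 4.24 ± 0.41 from 24 h, and the signals of the pair cannot be told apart here. TT7, for flavonoid 3'-hydroxylase, rose by 1.5 ± 0.25 from 24 h and by 2.79 ± 0.25 from 0 h. FLS1, for flavonol synthase, and CHI, for chalcone isomerase, stood 3.65 and 2.03 under 0 h on the log2 scale at 72 h and were not called against 24 h (0.15 and -0.12).

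**Figure D5:**
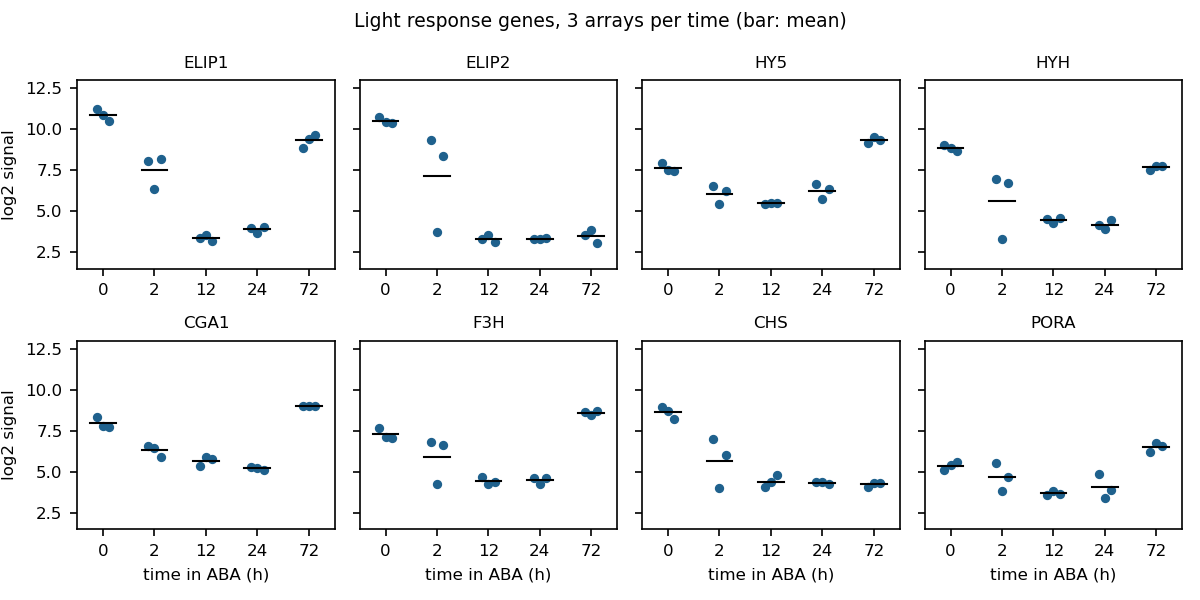
Log2 signal (y axis) of 8 light response genes on the 3 arrays of each time in ABA (x axis); points are arrays and bars are means. ELIP1, HY5, HYH, CGA1, F3H and PORA are lower on every array at 12 h and 24 h than at 72 h, while ELIP2 and CHS are low at 72 h too, with means of 3.48 and 4.24 at 72 h.

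Other late rises were BGLU35 and BGLU34, which the reference table also names TGG5 and TGG4 for myrosinases, enzymes that break down glucosinolates. BGLU35 read 3.13, 2.81 and 3.15 at 0 h, 4.67, 3.18 and 2.43 at 24 h and 7.76, 8.17 and 8.18 at 72 h, a rise of 4.61 ± 0.46 from 24 h (adjusted p = 8.82e-05). BGLU34 rose by 4.29 ± 0.30 in the same comparison. They were low at both earlier times and high on every array at 72 h, and as close relatives they may share signal. AT5G44440, unnamed in the reference table, rose by 4.09 ± 0.25. Of the 18 genes on the root hair list, 3 rose from 24 h, RHD6, RSL4 and RHD2, by 1.06, 1.12 and 1.43. None fell, and the list median was 0.23. Rises in this comparison were 1.93% of all loci.

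The late falls included genes of camalexin synthesis, the main phytoalexin of Arabidopsis. PAD3, for the last enzyme of that route, read 2.18, 2.48 and 2.29 at 0 h, 6.09, 5.44 and 6.11 at 24 h and 2.81, 2.66 and 2.43 at 72 h. CYP71A13, for an earlier step, read 2.78, 3.21 and 2.49 at 0 h, 8.24, 8.14 and 7.94 at 24 h and 5.47, 4.42 and 4.15 at 72 h. Both were highest at 24 h, and fell to 72 h by 3.25 ± 0.31 and 3.43 ± 0.49 (adjusted p = 7.19e-05 and 0.00141). CYP82C2, a further cytochrome P450 gene, fell by 3.37 ± 0.20 and ended within 0.05 of its 0 h mean. TCH3, for a calmodulin-like protein induced by touch, fell by 3.09 ± 0.54 from 24 h and by 4.43 ± 0.54 from 0 h. The other late falls named by rank were AT3G16530 (-3.58), AT2G05580 (-3.58), AT2G15220 (-3.45) and AT1G26380 (-3.35).

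In the reference table EEL, ABF1, ABF4, PYL7, AT2G25890, BETA-TIP, LAC17, CYP71A13, TCH3 and AT3G16530 each overlap another locus by more than 500 bases, and which transcript their probe sets read is not given in the sources used here.

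Marker genes of tissues and cell types were followed on the same arrays. Of 15 endosperm and seed coat markers, 2 rose (1 without 0 h replicate 1 or 3) and 1 fell, and the summed linear signal of the list was 1502 to 1599 at 0 h, 2354 to 2662 at 24 h and 1545 to 1686 at 72 h. MAN7, for an endo-beta-mannanase of germinating seeds, rose by 2.7, FLY1 rose by 0.44, and MUM2, for a mucilage galactosidase, fell by 0.91 on the log2 scale. EPR1, for an endosperm extensin, had means of 9.32 at 0 h, 10.09 at 24 h and 8.75 at 72 h and was not called. Root meristem markers summed to 535 to 564 at 0 h and 571 to 684 at 72 h, with PLT3 (0.95) the 1 of 6 called, and it was not called without 72 h replicate 1 or 3 or any 1 array at 0 h. Xylem markers summed to 200 to 254 at 0 h and 147 to 169 at 72 h, and 3 of 10 fell (LAC4, XCP1 and LAC17). Shoot meristem markers summed to 156 to 158 at 0 h and 295 to 304 at 72 h, where KNAT1 rose by 1.13 and STM, WUS and CLV3 were not called. Guard cell markers summed to 42 to 56 at 0 h and 28 to 34 at 72 h, where KAT1 fell by 1.95. None of the 3 pollen markers was called (24 to 29 at 0 h, 21 to 26 at 72 h), all with means from 2.68 to 3.26 at both times. The part of cell type shares in the changes above was not tested.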

How the data were processed

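RNA of germinated seeds was measured on Affymetrix arrays, 15 arrays at 5 times with 3 replicates each, after amplification from 50 ng of total RNA per the labels' protocols. The authors deposited log2 values made with RMA, per the submitters' processing notes. Array design, genome build, RMA version and scan batches were not given in the sources used here. Each of 35986 probe sets carries locus names; for 5838 loci named by several probe sets, the set with the highest mean over 15 arrays was kept, which left 27981 loci (27241 in the TAIR10.1 gene table, which gave symbols). No filter or further normalization was applied. One limma 3.58.1 model (R 4.3.3) was fitted to all 15 arrays, with moderated two-sided tests and Benjamini-Hochberg adjustment over all loci. The number of arrays limits the precision.

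The members and lists were chosen with earlier results of these data known. Named genes were the 12 largest called rises and falls without overlap against 0 h, the 8 largest against 24 h, up to 4 called members per list, 10 ABA and maturation genes, and members that differed from their list; genes named beyond these numbers were chosen after their values were seen. For counts over lists, no set test was run. Loci with values identical to another (195) were tested and not named, apart from counts. The procedure was tested on simulated data. Alternatives were a replicate block, quantile normalization, centring, a low-signal filter, an intensity trend, array weights, probe set means, a stricter threshold, the 6 arrays alone and leaving out arrays.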

Additional observations from a re-analysis of the deposited data

How the results depend on the processing

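No call at 72 h against 0 h turned its sign under any of the 16 alternatives run, several of which cannot alter the difference itself. Calls were lost, however: 2655 of the 10777 at an adjusted p under 0.01. Leaving out a single array at 0 h or 72 h lost from 1462 (72 h replicate 2) to 1658 (0 h replicate 2). The comparison of 72 h with 0 h called 10654 loci with a replicate block, and without single arrays 9181 to 14318. Same-numbered deviations at 72 h and 0 h correlated at -0.009, 0.256 and 0.173, and 72 h replicates 2 and 3 correlated best with their own number there. At 72 h and 24 h they correlated at -0.163, -0.174 and 0.048, and no 72 h replicate correlated best with its own number. With 3 arrays per time these correlations cannot settle whether the replicate numbers pair the samples. With the block, 784 loci were called at 72 h against 24 h.

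The comparison of 72 h with 24 h depended most on the processing. Its 928 calls (540 rises, 388 falls) became 373 (232 and 141) at an adjusted p under 0.01, 5717 (2850 and 2867) with array quality weights and 3184 (1656 and 1528) with only the 6 arrays compared. Leaving out single arrays gave 407 to 3588 calls, with 245 to 1809 rises and 158 to 1779 falls. Rises were 58.2% of its calls, 52.2% with quantile normalization and 51.2% with centring.

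At an adjusted p under 0.01, called members were 3 of SnRK2 kinases, 4 of dark and sugar starvation, 6 of autophagy, 0 of root meristem and 27 of the plastid genome. Array quality weights gave 10 small heat shock genes, 15 of dark and sugar starvation, 16 of oil breakdown, 7 of root hair development, 2 of root meristem, 2 of guard cells and 75 of the plastid genome, the last 73 with an intensity trend. With only the 6 arrays, 14 of dark and sugar starvation, 5 of xylem and 2 of guard cells were called, and quantile normalization gave 2 of guard cells. Leaving out single arrays gave 4 to 14 called in dark and sugar starvation, 0 to 2 in root meristem, 3 to 6 in SnRK2 kinases, 6 to 12 in autophagy, 4 to 10 in small heat shock genes, 2 to 5 in xylem and 1 to 2 in guard cells. The other totals of called members per list stayed within 1.5 times. Counts of rises or of falls alone moved further in 62 of 682 comparisons with the alternatives other than leaving out a single array. At an adjusted p under 0.01 these included 3 falls of LEA genes, 3 of gibberellin genes and 7 of aquaporins, 0 falls of ABA response markers and 1 rise each of small heat shock and endosperm genes. Array quality weights gave 12 rises of mitochondrial loci, 3 falls of storage and oil body genes and 2 falls of ABA synthesis and breakdown genes. Quantile normalization gave 1 rise of ABA receptors.

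CYP82C2, at -0.05 against 0 h and not called, read 0.05, 0.06 and 0.02 without 0 h replicate 1, 0 h replicate 2 and 72 h replicate 3, within a range of -0.25 to 0.06 over single arrays left out. Over the named genes, 2401 comparisons with an alternative kept their direction and side of the threshold, 31 lost the call and 12 gained it. The cause of these changes was not tested. The filter on low signals left no pollen marker. The promoter motif analysis was not run, since no promoter sequence was used here. Signals were not set against background, so differences of dim loci may be understated.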

Other observations

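Many nuclear genes with the symbol stems PTAC, OTP, TIC and CRR, the stems with the largest shares of falls, fell at 72 h. These groups were taken from symbol stems with at least 10 measured loci and chosen after their values were seen. Of 14 PTAC genes, whose products sit on the transcriptionally active chromosome of plastids, 12 fell and 1 rose (median -1.38), against 20.2% of all loci falling. PTAC16 had means of 5.88 at 0 h and 3.21 at 72 h, PTAC12 of 9.21 and 7.01, and PTAC4 rose by 0.68. Among OTP genes, for organelle transcript processing, 7 of 10 fell, led by OTP51 (-1.92), and among CRR genes, for chlororespiration and plastid RNA editing, 7 of 11 fell, led by CRR41 (-1.80). Of 13 genes with the stem TIC, 9 fell, among them TIC110 (-1.11), for the core of the inner envelope translocon. The 1 that rose, TIC at 0.49, is TIME FOR COFFEE, a clock gene outside the translocon. Of 12 genes with the stem TOC, which includes the outer envelope translocon and the clock gene TOC1, 4 fell and 3 rose (median -0.31). The stem with the largest share of rises, WNK, for a kinase family, was chosen in the same way. Its genes rose in 6 of 10 cases with no fall, against 18.4% of all loci rising, with WNK3 at 2.74 ± 0.14. The rises counted include loci with values identical to those of another locus.

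Loci annotated as microRNA genes rose more often than they fell. Of 174 such loci, 41 rose and 5 fell, against 18.4% and 20.2% of all loci. MIR156a and MIR156c, for the microRNA that delays the change to the adult phase, rose by 2.6 ± 0.37 and 2.00 ± 0.14, and MIR162a, whose product targets DCL1, by 2.59 ± 0.19. MIR163 fell by 3.54 on the log2 scale, from 6.72 to 3.18, and MIR775 by 2.00. These probe sets read RNA of the locus, not the mature microRNA. Loci annotated as lncRNA rose in 79 of 222 cases (35.6%) and fell in 35 (15.8%). Of 61 tRNA loci 14 fell (23%), near the share of all loci, and 1 rose (1.64%).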
